A study of Homo sapiens with 4 samples.

Results

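The genes that write, copy and erase DNA methylation were followed in Micro-C contact maps of human SH-SY5Y neuroblastoma cells with and without stable knockdown of the RNA- and DNA-binding protein TDP-43. The 8 genes were DNMT1, UHRF1, DNMT3A, DNMT3B, TET1, TET2, TET3 and TDG, out of 18703 protein-coding genes with a listed contact. A contact was taken when at least 1 of its 50 kb bins overlapped the body of one of these genes in hg38, by RefSeq gene models on GRCh38.p14. This gave 90 bin pairs of the 89239 in the deposited table, of which 21 are contacts within a bin and 69 are contacts between different bins. This rule uses no measured value, but the genes were chosen with earlier results of these data known.

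The control group is 2 libraries of SH-SY5Y cells carrying the shRNA labelled shNC, and the knockdown group is 2 libraries of SH-SY5Y cells carrying an shRNA against TDP-43. Both shRNAs were delivered by lentivirus from the same vector, and the protocol given for all 4 libraries has 2 weeks of puromycin at 2 µg/mL and 1 µg/mL afterwards. Its wording names the knockdown cells alone, so selection of the control cells is not spelled out. In Micro-C, crosslinked chromatin is cut by micrococcal nuclease and nearby fragments are ligated, so that a read pair counts 1 contact between 2 places in the genome. All 4 library titles carry the word merged without saying of what. The labels do not say that the replicates were separate cultures, so the p-values below measure only the spread between these libraries, which may be technical. The contact counts hold no expression, so neither the loss of TDP-43 nor the identity of the cells was checked here.

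As background, methyl groups on cytosine sit mostly at CpG dinucleotides. DNMT1 copies the pattern onto the new strand after replication, guided there by UHRF1, which binds hemimethylated DNA, while DNMT3A and DNMT3B set methylation at new places. The TET1, TET2 and TET3 dioxygenases oxidise 5-methylcytosine to 5-hydroxymethylcytosine and further products, and the glycosylase TDG removes the most oxidised products so that base excision repair can restore cytosine. Neurons are known for high levels of hydroxymethylcytosine and of DNMT3A-dependent methylation.

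The listed contacts summed to between 115168160 and 163147992 per library, with both control libraries deeper than both knockdown libraries. Contacts within a bin made up 84.9% of the counts in each control library and 83.8% in each knockdown library. The fold change also moved with abundance: the median log2 fold change (knockdown over control) of within-bin contacts was 0.13 in the lowest of 10 classes of mean level and -0.29 in the highest. The main results are therefore given under 2 scalings, and a value given once is under TMM. TMM scaling uses 1 factor per library, and the second scaling removes, in each library, the smooth trend of the difference with abundance by a loess fit. The median over the within-bin sums of all genes moved from -0.11 under TMM to -0.01 with the trend removed, and the value for each gene is to be read against these. Levels are in CPM (counts scaled to a common library size, here after TMM scaling), fold changes come from edgeR's quasi-likelihood test, and the threshold is a Benjamini-Hochberg adjusted p of 0.05 over the whole table.

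Under TMM scaling 13 of the 90 pairs of these genes (14.4%) passed the threshold, 2 higher and 11 lower in knockdown, beside 16.2% of all pairs (5.76% higher and 10.5% lower). With the trend removed 5 passed (5.56%), 2 higher and 3 lower, beside 10.9% of all pairs (4.98% higher and 5.96% lower). Of the 21 contacts within a bin 9 passed under TMM, 1 higher and 8 lower, beside 21.7% of all such pairs (7.40% higher and 14.3% lower). With the trend removed 2 of the 21 passed, both higher, beside 13.0% (7.90% higher). Of the 69 contacts between bins 4 passed under TMM, 1 higher and 3 lower, beside 9.60% of all such pairs (3.76% higher and 5.84% lower). The 3 that passed with the trend removed were lower, beside 8.43% (6.99% lower and 1.44% higher). The median log2 fold change over all between-bin pairs was 0.02 under TMM and -0.04 with the trend removed. The second scaling thus moves between-bin pairs downward as a whole. Only 2 of the 90 passed under both scalings, both lower: a contact inside DNMT3A and a contact of the DNMT1 start with the ICAM3 to ZGLP1 region, beside 8.28% of all pairs that passed under both in the same direction. By the authors' deposited table, 6 of the 90 pass, 3 higher and 3 lower, beside 5.03% of all pairs in that table that are higher and 5.97% that are lower. The deposited log2 fold changes of these pairs lie close to those with the trend removed, though the labels name no scaling. For the contact inside DNMT3A they are -0.491 and -0.492, against -0.436 under TMM. The deposited count is thus not separate evidence from the trend-removed count. The control and knockdown libraries lay apart without overlap in 46 of the 90 pairs, beside 56.1% of all pairs, and with 2 libraries against 2 an exact permutation test cannot go below p = 0.33.

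**Figure D1:**
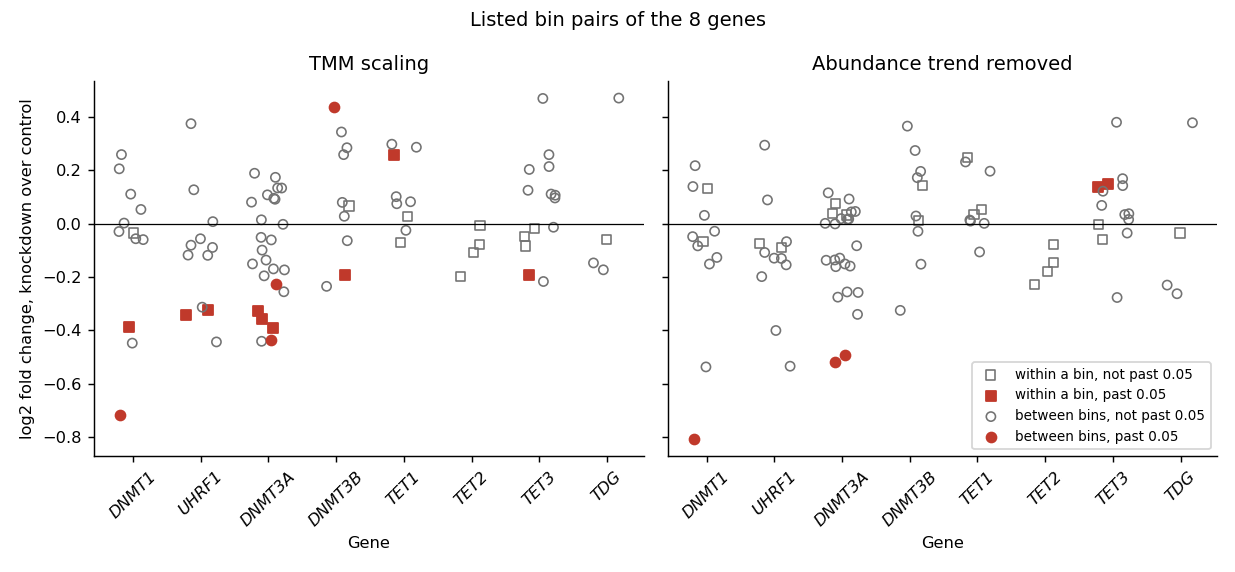
Log2 fold change (knockdown over control) of each of the 90 listed bin pairs, by gene, under TMM scaling (left) and with the abundance trend removed (right). Squares are contacts within a bin, circles contacts between bins, and filled red symbols passed an adjusted p of 0.05. The within-bin symbols of DNMT3A and UHRF1 lie below 0 on the left, those of DNMT3A move slightly above 0 on the right, and 1 pair each of DNMT1 and DNMT3A is red and low in both panels.

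The members differ widely in how densely their bins are contacted. In the control libraries the mean level per bin was 147 ± 3.06 CPM (SD, n = 2) for DNMT3A, 70.1 ± 2.03 for DNMT1, 68.8 ± 2.05 for UHRF1, 39.0 ± 0.896 for DNMT3B, 37.9 ± 0.588 for TET3, 19.3 ± 0.30 for TET1, 17.0 ± 0.0743 for TDG and 5.19 ± 0.122 for TET2. The order was the same by mean in knockdown. Neighbours in this order did not overlap between libraries, except DNMT1 and UHRF1 in control and DNMT3B and TET3 in knockdown. The 3 DNMT3A bins stand between the 98.5 and 99.7 percentile of all within-bin contacts by mean level, and 3 of the 4 TET2 bins stand between the 27.5 and 33.3 percentile. Over all bins the level also rose with gene density. Bins that overlap no protein-coding gene have a median percentile of 30.4. It is 54.0 with 1 such gene and 97.2 with at least 6. Each DNMT3A bin overlaps 1. The reason for the differences between members was not tested.

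**Figure D2:**
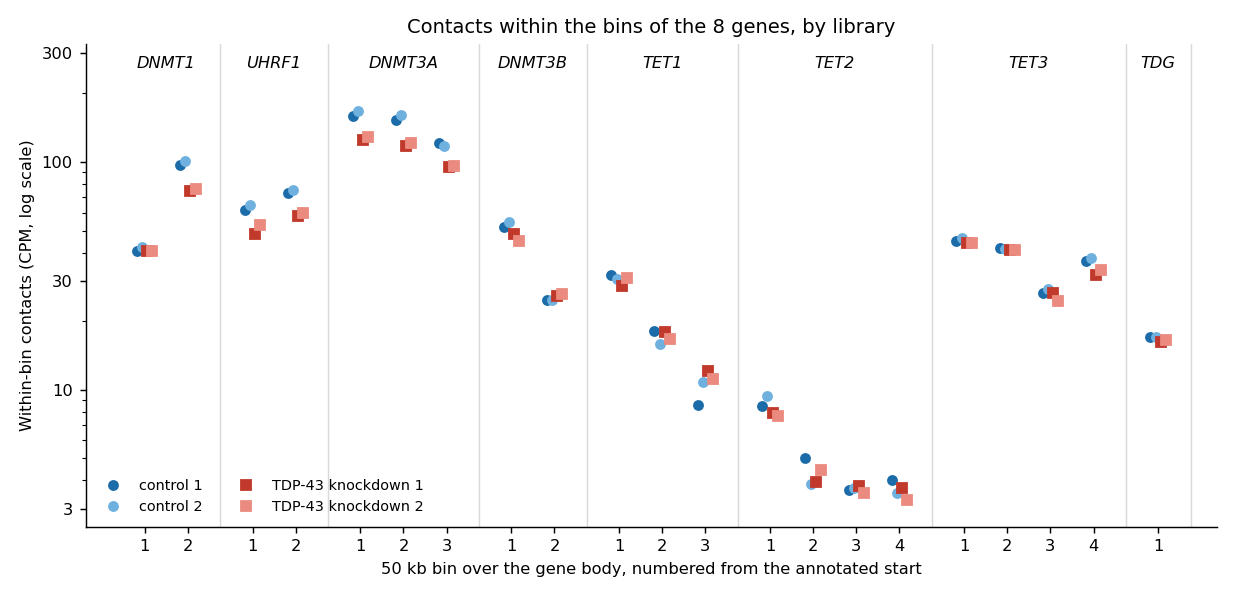
Within-bin contacts (CPM, log scale) of every 50 kb bin over the 8 genes, numbered from the annotated start, in each of the 4 libraries. All 3 DNMT3A bins, both UHRF1 bins and the second DNMT1 bin are lower in both knockdown libraries than in both control libraries, while the groups overlap in the bins of TET1 and TET2, apart from the first TET2 bin, which is lower, and the last TET1 bin, which is higher.

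The promoters of DNMT3A, DNMT1 and UHRF1, the genes on which the results turn, are shown because CpG sites are the substrate of the enzymes they encode or, for UHRF1, the sites it binds. All 8 genes matched the RefSeq promoter table on GRCh38.p14, which gives 250 bases before to 50 after a start, and the most upstream listed start was taken. The sequences run 5′ to 3′ on the gene's strand, with CpG in capitals.
DNMT3A promoter, chr2:25342541-25342840, minus strand: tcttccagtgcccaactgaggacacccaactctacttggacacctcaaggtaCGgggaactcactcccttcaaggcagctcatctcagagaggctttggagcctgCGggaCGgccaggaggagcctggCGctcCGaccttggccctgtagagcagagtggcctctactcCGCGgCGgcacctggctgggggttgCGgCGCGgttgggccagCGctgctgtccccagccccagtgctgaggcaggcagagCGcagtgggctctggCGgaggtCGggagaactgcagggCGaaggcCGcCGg
DNMT1 promoter, chr19:10194904-10195203, minus strand: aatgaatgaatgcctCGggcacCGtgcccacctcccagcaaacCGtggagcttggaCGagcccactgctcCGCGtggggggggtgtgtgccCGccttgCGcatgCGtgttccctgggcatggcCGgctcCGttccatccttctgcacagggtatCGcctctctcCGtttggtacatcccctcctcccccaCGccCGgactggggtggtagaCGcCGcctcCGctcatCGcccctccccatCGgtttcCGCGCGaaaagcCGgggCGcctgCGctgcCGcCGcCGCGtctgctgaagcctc
UHRF1 promoter, chr19:4909251-4909550, plus strand: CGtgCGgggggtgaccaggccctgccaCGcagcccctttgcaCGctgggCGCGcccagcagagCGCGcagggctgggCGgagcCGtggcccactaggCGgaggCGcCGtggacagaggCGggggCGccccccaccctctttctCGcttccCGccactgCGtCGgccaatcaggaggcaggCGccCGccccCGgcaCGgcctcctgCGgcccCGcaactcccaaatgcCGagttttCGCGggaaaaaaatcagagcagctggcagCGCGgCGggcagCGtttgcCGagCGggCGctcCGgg
The DNMT3A window holds 18 CpG, that of DNMT1 30 and that of UHRF1 36, against a median of 14 (quartiles 4 and 28) over 35116 promoters of this length. Among the other members the count was 45 for TET3, 22 for TDG, 13 for TET2, 10 for TET1 and 3 for DNMT3B. The letters GGGCGG, searched on both strands, were found in the windows of UHRF1, TET2 and TET3 and in 45.0% of all promoters. The DNMT3A and DNMT1 windows lie in the start bins of those genes, whose contacts are described next. The UHRF1, DNMT3B and TET3 windows begin inside the annotated gene body, in the first bin. Micro-C counts at 50 kb carry no methylation call, so the methylation of these CpG was not measured here.

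Summed per gene, within-bin contacts passed as lower for 4 of the 8 genes under TMM (DNMT1, UHRF1, DNMT3A and DNMT3B), beside 50.2% of all genes called in either direction. The trend removed left 2 (UHRF1 and TET2), beside 27.1%. In the maintenance pair, within-bin contacts of DNMT1 and UHRF1 fell in knockdown under TMM scaling. DNMT1 lies at chr19:10133346-10194953 on the minus strand and covers 2 bins. Its summed level per bin was 68.7 and 71.6 CPM in control and 57.5 and 58.4 in knockdown. The groups thus did not overlap, as for 74.4% of all genes in either direction. The log2 fold change of DNMT1 was -0.27 with an SE of 0.05 (adjusted p = 1.55e-05 by edgeR), beside 44.7% of all genes that fell and 5.46% that rose in the same fit. The value with the trend removed was -0.0018 (adjusted p = 0.974). The decrease lay in the bin that holds the 3′ end of DNMT1 together with EIF3G, P2RY11, PPAN, ANGPTL6 and the PPAN-P2RY11 readthrough gene. That bin stood at 96.6 and 100.6 CPM in control against 74.4 and 76.2 in knockdown (log2 fold change -0.39, adjusted p = 2.31e-09), and at -0.07 (adjusted p = 0.243) with the trend removed. The bin with the DNMT1 start, which holds no other protein-coding gene, stood at 40.8 and 42.5 CPM in control and 40.6 and 40.7 in knockdown. Its log2 fold change was -0.04 (adjusted p = 0.726), and 0.13 (adjusted p = 0.0502) with the trend removed.

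One contact of the DNMT1 start bin fell under both scalings. This bin (chr19:10150001-10200000) was contacted less by the bin 150 kb upstream of it (chr19:10300001-10350000), which holds ZGLP1, FDX2, RAVER1 and ICAM3, the last an adhesion molecule of leukocytes. The pair had 296 and 308 contacts in control and 108 and 221 in knockdown, or 1.97 ± 0.0456 CPM against 1.19 ± 0.420 (SD, n = 2). Both knockdown libraries were below both control libraries, and the first knockdown library was the lowest by far. By edgeR the log2 fold change stood at -0.72, with an SE of 0.23 (adjusted p = 0.0182), and -0.81 (adjusted p = 0.0121) with the trend removed. Among all between-bin pairs, 5.48% were lower under both scalings. The call was lost without the first knockdown library (-0.40, adjusted p = 0.528) and by DESeq2 (adjusted p = 0.0680), and held without each of the other libraries (adjusted p between 0.0102 and 0.0483). The largest increase of DNMT1 was the contact of the start bin with the next bin upstream, which holds the sphingosine phosphate receptor gene S1PR2, at 6.84 and 6.13 CPM against 8.36 and 7.18 (log2 fold change 0.26, adjusted p = 0.0964). Summed over its 10 between-bin pairs, DNMT1 stood at 37.0 and 36.9 CPM in control and 39.3 and 35.6 in knockdown, which overlap (0.02, adjusted p = 0.855).

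UHRF1 lies at chr19:4903080-4962154 on the plus strand, and its 2 bins also hold ARRDC5 and the start of the histone demethylase gene KDM4B. The level per bin was 67.3 and 70.2 CPM in control and 53.0 and 56.1 in knockdown, without overlap, as for 74.4% of all genes. UHRF1 thus fell by 0.33 on the log2 scale (adjusted p = 6.83e-07 by edgeR, with an SE of 0.05). Its value was -0.08 with the trend removed (adjusted p = 0.0411), which makes UHRF1 the only one of the 8 genes whose within-bin sum passed under both scalings, beside 14.4% of all genes that were lower under both. The start bin stood at 61.6 and 64.7 CPM against 48.1 and 52.8 (-0.32, adjusted p = 1.04e-06), and without the first knockdown library its adjusted p was 0.0602. Neither UHRF1 bin passed singly with the trend removed (-0.09 and -0.07). Its surroundings were also lower: 16 of the 19 listed bins within 500 kb were lower under TMM and 7 with the trend removed. Over all bins these shares were 14.3% and 5.11%. The flanking bins are densely contacted, with a median at the 94.0 percentile, and both UHRF1 bins belong to the highest of the 10 abundance classes. In that class 84.8% of bins were lower under TMM and 19.9% with the trend removed. The gene lies 4.90 Mb from the end of chromosome 19, and of all bins within 5 Mb of a chromosome end 53.2% were lower under TMM and 30.1% with the trend removed. The parts of contact level and of this location in the UHRF1 decrease were not tested. None of the 10 between-bin pairs of UHRF1 passed. The extremes were its contacts with the KDM4B bin at chr19:5050001-5100000. From the second UHRF1 bin this contact stood at 1.82 and 2.60 CPM in control and 2.98 and 2.76 in knockdown (0.38, adjusted p = 0.178). From the start bin it stood at 1.71 and 2.35 against 1.73 and 1.26 (-0.44, adjusted p = 0.175).

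Among the de novo enzymes, 5 of the 25 listed pairs of DNMT3A and 2 of the 10 of DNMT3B passed under TMM. Both are 20.0%, beside 16.2% of all pairs. With the trend removed 2 and 0 passed, beside 10.9% of all pairs. DNMT3A lies at chr2:25227874-25342590 on the minus strand and covers 3 bins that overlap no other protein-coding gene. Within them the level per bin was 145 and 149 CPM in control and 113 and 115 in knockdown, a gap far wider than that between replicates. The sum fell by 0.36 on the log2 scale (adjusted p = 6.52e-08 by edgeR, with an SE of 0.05), and the bins from the start to the 3′ end stood at -0.36, -0.39 and -0.33. Without the trend the sum was 0.05 (adjusted p = 0.0792) and the bins 0.08, 0.03 and 0.04, none of which passed. All 3 bins belong to the highest of the 10 abundance classes, in which 84.8% of bins were lower under TMM. With the trend removed 19.9% of the bins in that class were lower and 15.5% higher. The sign of the DNMT3A within-bin difference thus turns with the scaling.

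**Figure D3:**
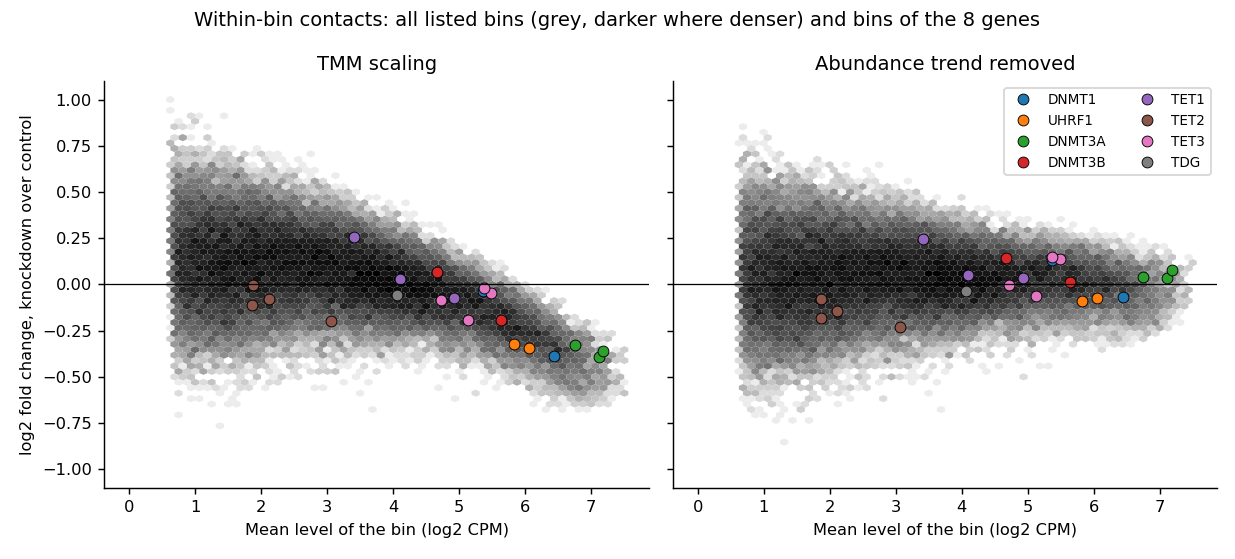
Log2 fold change (knockdown over control) of within-bin contacts against the mean level of the bin (log2 CPM), for all 48992 listed bins (grey, darker where denser) and the 21 bins of the 8 genes (coloured), under TMM scaling (left) and with the abundance trend removed (right). The DNMT3A bins lie at the far right, where the whole cloud bends below 0 on the left panel and is centred near 0 on the right panel.

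Contacts inside the DNMT3A gene also fell. Its start bin (chr2:25300001-25350000) and the bin of its 3′ end (chr2:25200001-25250000), 100 kb apart, shared 1001 and 1096 contacts in control and 585 and 781 in knockdown. In CPM this was 6.83 ± 0.404 against 5.04 ± 0.296 (SD, n = 2), and both knockdown libraries lay below both control libraries. The decrease was -0.44 on the log2 scale (adjusted p = 0.00508 by edgeR, with an SE of 0.12), and -0.49 (adjusted p = 0.00309) with the trend removed. It also passed by DESeq2 (adjusted p = 0.0111), and lost the call without the first knockdown library (-0.37, adjusted p = 0.165). The start bin and the middle bin stood at 25.5 and 26.1 CPM in control and at 22.1 in both knockdown libraries (-0.22, adjusted p = 0.00726). That pair did not pass with the trend removed (-0.16, adjusted p = 0.0835), nor without the first (adjusted p = 0.150) or the second knockdown library (adjusted p = 0.133). The middle bin and the 3′ bin stood at 14.8 and 14.1 CPM against 13.4 and 13.0 (-0.14, adjusted p = 0.259). All 3 contacts inside the gene were thus lower in both knockdown libraries, as were 26.3% of all pairs. They passed in 2 cases under TMM, beside 5.84% of all between-bin pairs that passed as lower. With the trend removed 1 passed, beside 6.99%.

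Outside the gene, none of the 19 listed contacts of DNMT3A passed under TMM. The contact of its 3′ bin with the bin just upstream of its start (chr2:25350001-25400000), which holds the dystrobrevin gene DTNB, stood at 3.31 and 3.36 CPM in control and 2.38 and 2.53 in knockdown. Its log2 fold change was -0.44 (adjusted p = 0.0721) under TMM and -0.52 (adjusted p = 0.0357) with the trend removed. The largest increase was between the start bin and a DTNB bin 200 kb upstream (0.19, adjusted p = 0.475). Summed over 22 between-bin pairs, DNMT3A stood at 115 and 116 CPM in control and 106 and 107 in knockdown. This sum stood at -0.12 on the log2 scale (adjusted p = 0.0785 by edgeR, with an SE of 0.05), and at -0.14 (adjusted p = 0.0746) with the trend removed, beside 24.8% of all genes called for this sum (14.7% lower). Without the first or the second control library the sum passed (adjusted p = 0.00199 and 0.0237), and DESeq2 also called it (adjusted p = 0.0366). Without the first or the second knockdown library the adjusted p was 0.525 and 0.403.

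**Figure D4:**
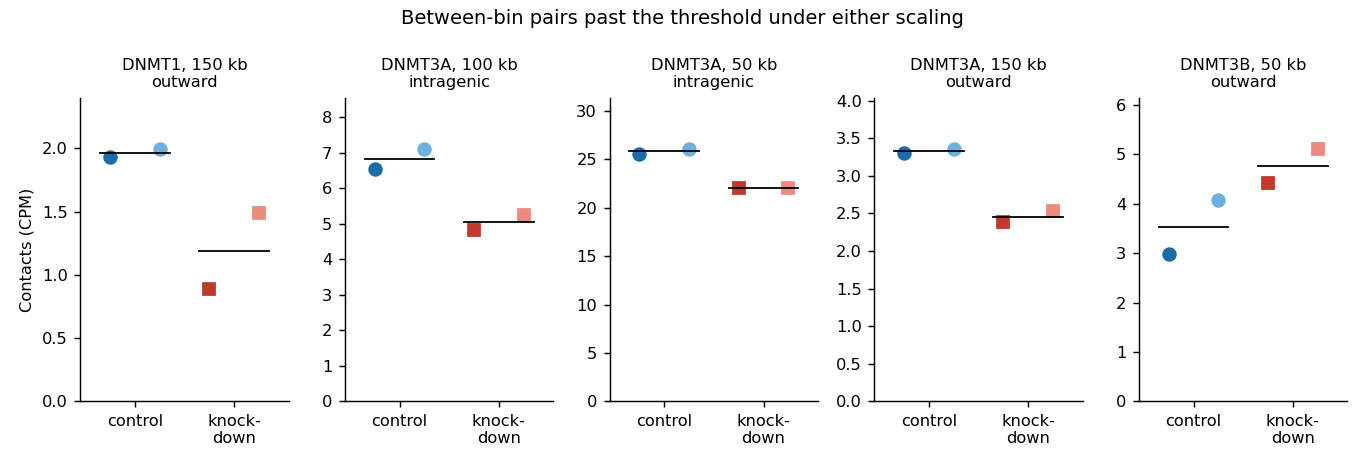
Contacts (CPM) of the 5 between-bin pairs that passed under either scaling, in each library, with the group mean as a line. Both knockdown libraries lie below both control libraries in the DNMT1 panel and the 3 DNMT3A panels, and above them in the DNMT3B panel.

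DNMT3A was also compared with its own neighbourhood, as the mean count of its bins over the mean count of listed bins within 500 kb. The ratio was 3.43 and 3.46 in control and 2.92 and 2.99 in knockdown. By limma the log2 difference was -0.22 with an SE of 0.04 (adjusted p = 0.0414), beside 10.2% of all genes called. The difference was -0.03 (adjusted p = 0.687) with the trend removed, where 0 of 18699 genes passed, and each of the 4 analyses without 1 library lost the call, with the log2 difference between -0.24 and -0.20. Of the 19 flanking bins, 5 were lower and 2 higher under TMM, beside 14.3% and 7.40% of all bins. With the trend removed 5 were higher, beside 7.90%. Among the lower ones, 3 bins centred 418 to 518 kb downstream of the start stood at -0.31, -0.36 and -0.33 under TMM, about as low as the gene. The bin just upstream of the start resembled the gene in level (98.3 percentile) and in log2 fold change (-0.31), and the 5 bins beyond it stood between the 56.6 and 75.1 percentile with values between 0.11 and 0.22. No other member passed in this comparison (adjusted p between 0.212 and 0.957).

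**Figure D5:**
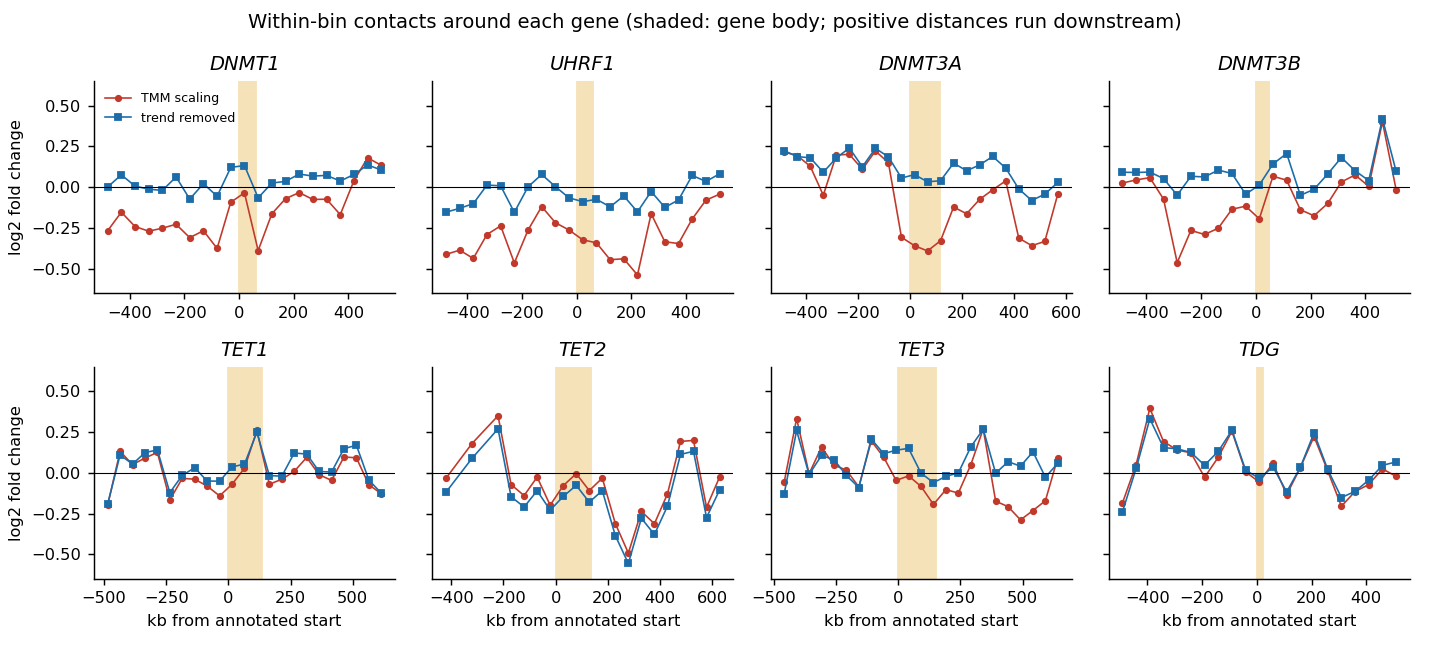
Log2 fold change (knockdown over control) of within-bin contacts of each listed bin from 500 kb before to 500 kb beyond each gene, against distance in kb from the annotated start, with the gene body shaded and positive distances downstream. Red is TMM scaling and blue is the trend removed. The red line of DNMT3A lies low over the gene, the bin before it and 3 bins 418 to 518 kb downstream, while its blue line stays near or above 0 there, and the UHRF1 red line is below 0 throughout.

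DNMT3B lies at chr20:32762385-32809356 on the plus strand and covers 2 bins, the second shared with MAPRE1, a microtubule plus-end protein gene. Its level per bin was 38.4 and 39.6 CPM in control and 37.0 and 35.5 in knockdown. Its log2 fold change was -0.11 (adjusted p = 0.04998 by edgeR, just under the threshold, with an SE of 0.05), close to the median of all genes, and 0.06 (adjusted p = 0.262) with the trend removed. The call was lost without the second control library (adjusted p = 0.0926), the first knockdown library (0.141) or the second (0.445), and by DESeq2 (0.0642). The start bin stood at 51.9 and 54.4 CPM against 48.2 and 44.8 (-0.19, adjusted p = 0.00671), and at 0.01 (adjusted p = 0.897) with the trend removed. That call was lost without the first (adjusted p = 0.0692) or the second knockdown library (0.376).

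In the other direction, DNMT3B had the only between-bin pair of the 8 genes that passed as higher under TMM. Its 3′ bin met the next bin downstream, with MAPRE1 and EFCAB8, at 2.99 and 4.07 CPM in control and 4.42 and 5.12 in knockdown. The groups did not overlap, but the control libraries differed from each other by more than the nearest libraries of the groups did. The increase was 0.44 on the log2 scale (adjusted p = 0.0277 by edgeR, with an SE of 0.15), and 0.37 (adjusted p = 0.0890) with the trend removed. It was lost by DESeq2 (adjusted p = 0.124) and without the first control library (0.351), the first knockdown library (0.0857) or the second (0.397). The log2 fold change was 0.22 without the first control library and 0.68 without the second. Over its 8 between-bin pairs DNMT3B rose from 25.0 and 27.0 CPM to 28.7 and 29.3 (0.16, SE 0.06, adjusted p = 0.0490), beside 10.1% of all genes that rose. That sum did not pass with the trend removed (0.09, adjusted p = 0.328), by DESeq2 (adjusted p = 0.166) or without the first control library (0.280), the first knockdown library (0.192) or the second (0.282). The largest decrease was the contact of the start bin with a NOL4L bin 200 kb upstream (-0.24, adjusted p = 0.529).

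The TET dioxygenase genes gave few calls, and none that passed under both scalings. TET1 lies at chr10:68560337-68694487 on the plus strand in 3 bins of its own. Its level per bin was 19.5 and 19.1 CPM in control and 19.5 and 19.6 in knockdown (log2 fold change 0.02, adjusted p = 0.759 by edgeR), and at 0.08 (adjusted p = 0.132) with the trend removed. The start bin stood at 31.9 and 30.5 CPM against 28.5 and 30.9, which overlap (-0.07, adjusted p = 0.466). The last bin rose from 8.54 and 10.8 to 12.0 and 11.1 CPM (0.26, adjusted p = 0.0388), beside 14.3% of bins in its abundance class that rose, and stood at 0.25 (adjusted p = 0.0771) with the trend removed. That call was lost by DESeq2 (adjusted p = 0.210) and without the first control library (0.599), the first knockdown library (0.407) or the second (0.103). The log2 fold change was 0.09 without the first control library and 0.44 without the second. None of its 20 flanking bins passed under either scaling. Inside the gene, the first and second bins met at 3.73 and 4.41 CPM in control and 4.88 and 5.13 in knockdown, the largest increase (0.30, adjusted p = 0.134), and the lowest value was its contact with the CCAR1 bin (-0.02, adjusted p = 0.955).

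TET2, often mutated in blood cancers, lies at chr4:105145875-105279803 on the plus strand and covers 4 bins. The start bin stands at the 52.7 percentile of within-bin contacts and the others between 27.5 and 33.3. The start bin and the one after it also overlap the protein-coding gene LOC124900868. TET2 stood at 5.28 and 5.10 CPM per bin in control and 4.82 and 4.72 in knockdown. The groups did not overlap, as for 74.4% of all genes. On the log2 scale TET2 stood at -0.12 (adjusted p = 0.121 by edgeR, with an SE of 0.07), against the median of -0.11 over all genes. It fell by 0.17 with the trend removed (adjusted p = 0.0391), so that TET2 and UHRF1 were the members lower in that scaling, beside 15.0% of all genes. The start bin stood at 8.48 and 9.34 CPM against 7.90 and 7.63 (-0.20, adjusted p = 0.181), and no single TET2 bin passed. TET2 had no between-bin pair in the table, which lists pairs only down to a mean abundance of -0.01 (log2), so its outward contacts could not be compared. Of its 16 listed flanking bins 1 passed under both scalings, beside 8.28% of all pairs. That bin is centred 279 kb downstream of the start (-0.49, adjusted p = 0.00404 by edgeR).

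TET3, known for oxidising methylated cytosine of the paternal genome in the zygote, lies at chr2:73983631-74135498 on the plus strand, and its 4 bins also touch DGUOK and BOLA3. Its level per bin was 37.5 and 38.4 CPM in control and 36.0 and 35.8 in knockdown. On the log2 scale the sum stood at -0.08 (adjusted p = 0.198 by edgeR, with an SE of 0.05) and at 0.07 (adjusted p = 0.0646) with the trend removed. The start bin stood at 44.8 and 46.3 CPM against 44.3 and 44.0, and the next bin at 41.7 and 41.5 against 41.3 and 40.9. These bins were at -0.05 and -0.02 under TMM (adjusted p = 0.619 and 0.862) and passed as higher with the trend removed, at 0.14 and 0.15 (adjusted p = 0.0314 and 0.0233), beside 15.6% of bins in their abundance class. In CPM both knockdown libraries lay below both control libraries in each bin, so the sign turns with the scaling. The last bin fell from 36.9 and 37.9 to 31.8 and 33.6 CPM under TMM (-0.19, adjusted p = 0.00894), beside 32.4% of bins in that class, and stood at -0.06 (adjusted p = 0.495) with the trend removed. That call was lost without the first (adjusted p = 0.333) or the second knockdown library (0.0662). None of the 10 between-bin pairs passed, from -0.22 (adjusted p = 0.262) for the last pair of neighbouring bins to 0.47 (adjusted p = 0.144) for the last bin with a bin of C2orf78 and STAMBP 300 kb away.

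TDG lies at chr12:103965872-103988874 on the plus strand, inside 1 bin shared with UQCC6 and GLT8D2. That bin stood at 17.1 and 17.0 CPM in control and 16.2 and 16.5 in knockdown (log2 fold change of the within-bin sum -0.06, adjusted p = 0.530 by edgeR), and at -0.04 (adjusted p = 0.761) with the trend removed. Its contact with the next bin downstream stood at 1.23 and 1.38 CPM against 1.86 and 1.76, which do not overlap (0.47, adjusted p = 0.147). Its contact with the bin after that, with HCFC2, stood at 1.82 and 1.76 against 1.52 and 1.65 (-0.17, adjusted p = 0.657). None of the 4 TDG pairs passed under either scaling.

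Within each library, the contacts of a gene with other bins were also set against those within its bins, a ratio in which library depth cancels. For DNMT1 the ratio was 0.270 and 0.258 in control and 0.342 and 0.304 in knockdown, and for DNMT3A 0.265 and 0.260 against 0.312 and 0.308. The log2 difference was higher in knockdown for all 7 genes with between-bin pairs, from 0.08 for TDG to 0.29 for DNMT1, beside a median of 0.19 over 14887 genes. None passed by limma (adjusted p between 0.0575 and 0.515), as for all genes, of which 0 passed while 7551 (50.7%) had an unadjusted p under 0.05. With a spread that follows the mean count, 5 members and 53.2% of all genes passed, all 5 higher, and with a minimum total of 2000 counts 4 members and 43.1% of all genes. Without the trend the ratio was between -0.19 for DNMT3A and 0.03 for DNMT3B, with 0 calls among the members and among all genes.

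Other genes of the pathway were followed in 5 lists. Of the 55 listed genes all but ZFP57 had a within-bin count. Over these 54, within-bin contacts fell for 30 and rose for 1 under TMM, with a median of -0.15 beside -0.11 over all genes, of which 44.7% were lower and 5.46% higher. Without the trend 6 were lower and 8 higher, with a median of -0.02 beside -0.01 over all genes, of which 15.0% were lower and 12.2% higher. The counts of each list below are to be read against these shares, and no list was tested against other genes. Among methyltransferases and maintenance partners 4 of 8 fell under TMM and 1 with the trend removed. That gene was DNMT3L, a catalytically inactive cofactor of the de novo enzymes, at 82.1 and 90.0 CPM in control and 62.9 and 64.4 in knockdown (-0.44, adjusted p = 3.26e-10, and -0.14, adjusted p = 0.00186, with the trend removed). TRIM28, a corepressor at silenced transposons, was at -0.29 (adjusted p = 1.30e-05) and -0.03 (adjusted p = 0.487).

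Of the 10 genes in the list named methyl-CpG readers 6 fell under TMM, beside 44.7% of all genes, and 2 with the trend removed, beside 15.0%. Binding to methylated CpG was not measured here for any of them. Their median was -0.23 under TMM and -0.04 with the trend removed. MBD3, a subunit of the NuRD complex, stood at 111 and 113 CPM in control and 79.8 and 82.8 in knockdown (-0.47, adjusted p = 1.35e-10, and -0.12, adjusted p = 0.00420, with the trend removed). MBD1 stood at 43.2 and 48.3 against 34.1 and 35.3 (-0.40, adjusted p = 1.34e-08, and -0.24, adjusted p = 0.000134). Both knockdown libraries were below both control libraries for MBD3 and for MBD1. The groups did not overlap, in either direction, in the within-bin sums of 74.4% of all genes.

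In base excision repair after TDG, 7 of 10 genes fell and 1 rose under TMM, beside 44.7% and 5.46% of all genes. The 4 that passed with the trend removed rose, beside 12.2%, so the split depends on the scaling. The glycosylase genes NEIL2 (-0.28, adjusted p = 1.92e-06) and OGG1 (-0.25, adjusted p = 5.67e-05) had the largest changes under TMM, and neither passed with the trend removed (adjusted p = 0.480 and 0.989). Of 14 TET regulators and genes of cofactor supply 8 fell under TMM (44.7% of all genes), and 2 rose and 2 fell with the trend removed (12.2% and 15.0% of all genes). D2HGDH, which degrades the TET inhibitor D-2-hydroxyglutarate, stood at -0.45 (adjusted p = 1.86e-09) and -0.17 (adjusted p = 5.52e-06). CXXC4, a binding partner of TET2, fell from 6.18 and 5.88 to 4.78 and 4.46 CPM (-0.39, adjusted p = 0.0143, and -0.45, adjusted p = 0.00891, with the trend removed). Of 12 genes of methyl donor supply 5 fell under TMM, and 2 rose and 1 fell with the trend removed, beside the same shares of all genes. The mitochondrial serine hydroxymethyltransferase gene SHMT2 was at -0.42 (adjusted p = 3.18e-08) under TMM, a call that was lost without the trend (0.04).

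For each member past the threshold in the within-bin sums, the 2 genes on other chromosomes with the most alike pattern over the 4 libraries were found, by Euclidean distance of centred log2 CPM. For DNMT1 these were CATIP and SLC11A1, which share a bin and so give 1 value (distance 0.00244), and for UHRF1 MLXIPL (0.00440) and LOC441239 (0.00440). For DNMT3A they were CLCN1 (0.00589) and ZCCHC24 (0.00623), and for DNMT3B GPR19 (0.00656) and CCDC195 (0.00999). With 4 libraries and 17338 to 18166 genes compared, such small distances are a description only.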

How the data were processed

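Micro-C contacts were measured in 4 SH-SY5Y libraries. Per the submitters' processing notes, HiC-Pro and the hg38 build were used, with no versions given. The deposited table holds raw counts per library for 89239 pairs of 50 kb bins, of which 48992 are within a bin, and lists no pair under a mean abundance of -0.01 (log2). The authors' own log2 fold change, F statistic (a score per pair) and p-value with its adjusted value stand beside the counts, per the file headers. Library depth beyond the listed pairs was not used here, and the precision of each value is limited by the 2 libraries per group.

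Counts were fitted for all pairs, and for within-bin and between-bin sums of all genes, with edgeR 4.0.16 (R 4.3.3, TMM scaling, filterByExpr, glmQLFit and glmQLFTest, group only), with Benjamini-Hochberg adjustment over the whole table at 0.05. TMM factors were between 0.944 and 1.05. A bin is 25 kb on either side of the listed middle. The second scaling used loess offsets per library with a span of 0.3. Ratios within a library were tested with limma 3.58.1 on log2 values. DESeq2 1.42.0, stricter filters, autosomes alone, a replicate block and each library left out were alternatives. The chi-square per degree of freedom was 8.86 within the control pair and 4.80 within the knockdown pair, so no library was counted as a repeat of another.

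On simulated counts of all 89239 pairs, the edgeR test recovered 100% of pairs changed by a log2 of 1 and 19% of those changed by 0.5. For the within-bin sums of 18701 genes the test recovered 100% of both. Each simulation gave all its pairs or genes the same spread, so these shares do not carry over to a single pair or gene.

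The 8 genes and the pathway lists were chosen with earlier results of these data known. Described for each gene were the bin of its start and its between-bin pairs with the largest increase and decrease, and for each list up to 2 genes with the largest change past the threshold. Promoters came from RefSeq on GRCh38.p14. Protein sequences were not used here. One gene of the methyl donor list is counted but not reported singly here.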

Additional observations from a re-analysis of the deposited data

How the results depend on the processing

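The counts of calls below moved by more than 1.5 times under an alternative. Of the 90 pairs, 13 passed with TMM scaling, 5 with the abundance trend removed and 6 in the authors' deposited table. The last 2 counts are not separate, as the deposited log2 fold changes lie close to those with the trend removed. Bins within 50 kb of a gene body gave 21 of 151 pairs. That share of 13.9% is about the same as the 14.4% of the 90 pairs, so only the count grew. Leaving out each library in turn gave between 5 (without the first knockdown library) and 15 (without the second control library), with 8 without the second knockdown library, beside 5.50%, 15.7% and 7.14% of all pairs in those fits. The within-bin sums called 4 genes, beside 50.2% of all genes, and 2 with the trend removed, beside 27.1%. The between-bin sums called 1 gene, beside 24.8% of all genes. They called 0 at a threshold of 0.01, beside 13.8%, and 0 with the trend removed, beside 22.9%. The shares over all genes thus moved as well. The between-bin over within-bin ratio called 0 genes, 4 with a total of at least 2000 and 5 with a spread that follows the mean count, and the gene over flank ratio called 1, 0 at 0.01, 0 with the trend removed and 0 with any library left out. With the replicate number as a block the between-bin sums called 2 genes, DNMT3B and DNMT3A (adjusted p = 0.00816 by edgeR for DNMT3A), beside 31.2% of all genes. The flank ratio called 0 with the block, as for all genes, and the block moved no other count of calls by over 1.5 times. The deviations of same-numbered libraries correlated at 0.0192 over the pairs, so the numbers are not shown to pair the libraries.

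The sign turned with the trend removed for the within-bin sums of DNMT3A (0.051), DNMT3B (0.056) and TET3 (0.069), the 3 DNMT3A bins (0.076, 0.032 and 0.039) the start bins of DNMT3B (0.013), DNMT1 (0.13) and TET1 (0.035), and the first 2 TET3 bins (0.14 and 0.15). It turned for the between-bin sums of DNMT1 (-0.039) and TDG (-0.071), and for the between-bin over within-bin ratio of DNMT1 (-0.038), UHRF1 (-0.013), DNMT3A (-0.19), TET1 (-0.010), TET3 (-0.054) and TDG (-0.031). It turned for the flank ratio of UHRF1 (-0.022), DNMT3B (-0.0077) and TET2 (0.012). With each library left out in turn, values on both sides of 0 were found for the between-bin sums of DNMT1 (-0.056 to 0.089) and TDG (-0.098 to 0.13), the TDG ratio (-0.031 to 0.19), and the flank ratios of UHRF1 (-0.028 to 0.040) and TET2 (-0.029 to 0.021). With other flank widths the sign turned for TET2 (0.071 at 250 kb and 0.030 at 1000 kb) and TET3 (-0.050 at 250 kb). The cause of these turns was not tested. The spread estimates and the use of the deposited table were alternatives chosen after seeing the data. On simulated counts of all pairs 19% of those changed by a log2 of 0.5 were recovered. The simulation gave all pairs the same spread. In the data the SE was 0.06 for the DNMT1 start bin and 0.23 for the contact of TDG with the next bin downstream, both without a call. The simulated share therefore cannot say how large a change a given pair without a call may have had.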
